A study of Homo sapiens with 4 samples.

Results

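The cells described here are HCC1143 breast cancer cells that had been exposed to 1 nM paclitaxel for 72 h, set against cells of the same line exposed for 24 h. All barcodes of the treated tables with under 20% of their UMIs (unique molecular identifiers, counted mRNA molecules) from mitochondrially encoded (MT-) genes were taken. This gave 520 cells at 72 h and 776 cells at 24 h, 1296 of the 3180 cells kept over the 4 libraries. HCC1143 is an established triple-negative breast cancer line of basal type. Cells attached to plates before treatment, and the controls received the solvent DMSO for 24 h (1101 cells) or 72 h (783 cells). Each drug and time was profiled in 1 droplet library, so a difference between times is a difference between libraries, with no replicate check.

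Paclitaxel binds beta-tubulin in the microtubule lattice and stabilises it, which disturbs the mitotic spindle. Cells that leave a disturbed mitosis can hold misplaced DNA, and cytosolic nucleic acid is one known trigger of type I and type III interferons. Secreted interferons act through receptors and transcription factors such as IRF9 on genes that carry an interferon-stimulated response element, while NF-kB drives many chemokine genes and the kinases of the integrated stress response raise ATF4, DDIT3 and ATF3.

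Levels are in CPM: the UMIs of a gene over all cells used from a library, scaled to a total of 1000000 UMIs. A gene was called higher or lower where the ratio of CPM reached 1.5-fold and the exact 95% interval of the ratio excluded 1. That interval covers counting error only. Kept cells held 34850724 UMIs at 72 h and 55502535 at 24 h, with medians of 57545 and 59670 UMIs per cell. Epithelial markers were present in both treated libraries: EPCAM was at 308 CPM at 24 h and 347 CPM at 72 h, and KRT18 at 783 and 931 CPM. ERBB2 was at 20.4 and 20.6 CPM, and the oestrogen receptor gene ESR1 at 0.306 and 0.660 CPM. Of 10 immune markers, 4 were listed in any table. The summed level of those 4 markers was 9.04 CPM at 24 h and 24.7 CPM at 72 h. CD68, a lysosomal protein of macrophages that epithelial lines also express, made up most of it, at 6.29 and 19.6 CPM. PTPRC, the pan-leukocyte antigen CD45, was listed at 72 h alone, at 0.287 CPM. Of 8 fibroblast markers COL1A1 was the only one above 10 CPM, at 10.0 CPM at 24 h and 13.9 CPM at 72 h, and no endothelial marker reached 10 CPM in a treated library. The part of other cell types in the results was not tested. The 2 treated libraries shared 0 barcodes.

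At 72 h, 51 of the 520 cells (9.81%) had under 2% of their UMIs from MT- genes, against 6 of 776 at 24 h. Their median depth was 33787 UMIs, and that of the other 469 cells was 59401 UMIs. Values without these cells are given for part of the results only. ATF3 was at 138 CPM in these cells and 78.2 CPM in the other 469, GADD45A at 445 and 253 CPM, and PMAIP1 at 270 and 130 CPM. Other genes went the other way: IFI6 was at 422 and 764 CPM and CXCL8 at 144 and 262 CPM.

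Promoters are shown for interferon-stimulated, chemokine and stress genes with high ratios at 72 h. IFIT2, CCL5 and PI3, which ranked above the genes shown in their lists, have no entry in the table used. Each sequence below is the 250 bases that end just before an annotated transcription start, from RefSeq (GRCh38.p14), written 5′ to 3′ on the strand of the gene. Capitals mark matches on either strand to 4 motifs: GAAA, any 2 bases and GAAA (the core of the interferon-stimulated response element), to GGGA, any 2 bases and TTCC (an NF-kB type site), TGACGTCA (the cAMP response element) or TGATGNAA (a C/EBP-ATF type site). IFIT3 and IFIT1 encode interferon-induced RNA-binding proteins, CXCL10 encodes a T-cell-attracting chemokine and ATF3 encodes a stress-induced transcription factor. The IFIT3 entries lie at chr10:89327747-89327996 and chr10:89332279-89332528, plus strand. The IFIT1 entry lies at chr10:89392373-89392622, plus strand. CXCL10 lies at chr4:76023498-76023747, minus strand, and the ATF3 entry at chr1:212565157-212565406, plus strand.
IFIT3 start 1: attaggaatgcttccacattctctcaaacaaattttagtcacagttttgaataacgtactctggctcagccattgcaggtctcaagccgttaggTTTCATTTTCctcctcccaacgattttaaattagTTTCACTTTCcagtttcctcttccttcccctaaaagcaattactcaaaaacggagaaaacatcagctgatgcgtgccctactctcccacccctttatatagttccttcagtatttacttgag
IFIT3 start 2: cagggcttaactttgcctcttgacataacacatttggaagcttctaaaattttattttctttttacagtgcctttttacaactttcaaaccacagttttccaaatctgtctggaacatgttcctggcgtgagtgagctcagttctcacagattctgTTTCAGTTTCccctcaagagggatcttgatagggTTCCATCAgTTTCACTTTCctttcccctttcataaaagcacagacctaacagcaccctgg
IFIT1: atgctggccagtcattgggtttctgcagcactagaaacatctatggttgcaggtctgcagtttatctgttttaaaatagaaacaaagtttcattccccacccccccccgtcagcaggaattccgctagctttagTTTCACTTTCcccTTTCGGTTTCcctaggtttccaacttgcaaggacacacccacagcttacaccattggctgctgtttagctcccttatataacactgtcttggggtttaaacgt
CXCL10: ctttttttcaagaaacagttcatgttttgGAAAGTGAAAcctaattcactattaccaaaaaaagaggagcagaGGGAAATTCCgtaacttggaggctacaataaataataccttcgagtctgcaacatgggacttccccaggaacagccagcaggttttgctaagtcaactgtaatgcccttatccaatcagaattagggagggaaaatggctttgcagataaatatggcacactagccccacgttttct
ATF3: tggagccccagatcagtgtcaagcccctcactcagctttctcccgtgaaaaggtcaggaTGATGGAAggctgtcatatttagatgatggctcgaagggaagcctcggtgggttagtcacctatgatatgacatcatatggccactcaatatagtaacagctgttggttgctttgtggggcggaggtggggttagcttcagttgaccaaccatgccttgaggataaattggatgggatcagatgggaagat
The IFIT3 and IFIT1 stretches each held 2 response-element cores, and the second IFIT3 stretch also held a C/EBP-ATF type match that overlaps none of them. The CXCL10 stretch held 1 core and 1 NF-kB type match, and the ATF3 stretch 1 C/EBP-ATF type match. Stretches of CCL20 and DDIT3 and the second ATF3 entry held no match to these letters. Over all 35116 stretches of this length in the table, 3.02% held the core, 1.40% the NF-kB type, 1.65% the cAMP element and 3.14% the C/EBP-ATF type. By gene, the core was found in 24 of the 37 interferon-list genes with an entry, in 8 of 17 genes of the MHC class I list and in 3.71% of all 27305 genes. The NF-kB type was found in 10 of 19 chemokine-list genes with an entry and in 1.73% of all genes. These are matches of letters, and binding was not measured.

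Among the gene lists with at least 10 members measured, interferon-stimulated genes had the highest median ratio of 72 h over 24 h. Of 47 listed genes, 46 were in at least 1 table and 37 averaged 10 CPM or more in the treated libraries. Of those, 36 were higher at 72 h and 0 lower, with a median log2 ratio of 1.36. Over all 8335 genes at that level, 12.2% were higher, 2.65% lower and the median log2 ratio was 0.13. Because low genes can pass through their 72 h level alone, the list was also read by the 24 h level. Of the 26 members with at least 10 CPM at 24 h, 25 were higher, beside 9.83% of all genes so chosen.

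IFI6, a mitochondrial protein with antiapoptotic activity, stood at 37.1 CPM with DMSO at 24 h, 73.3 CPM with DMSO at 72 h, 199 CPM with paclitaxel at 24 h and 736 CPM with paclitaxel at 72 h. ISG15, the ubiquitin-like modifier, was at 192, 296, 579 and 1912 CPM in the same order. IFI27 was at 3.61, 5.18, 15.03 and 91.2 CPM. In all 3 genes the 72 h treated library was the highest of the 4 and the 24 h treated library the second. The log2 ratios of 72 h over 24 h with paclitaxel were 1.89 for IFI6 (95% interval 1.85 to 1.92), 1.72 for ISG15 (1.70 to 1.74) and 2.60 for IFI27 (2.49 to 2.71). With DMSO they were 0.98, 0.62 and 0.52. In the DMSO comparison, 15 of the 24 list members with at least 10 CPM were higher at 72 h, 1 was lower and the median was 0.61, beside 6.43% higher and 25.1% lower over all genes. With totals without ribosomal protein and MT- genes, 23 of these 24 were higher with DMSO (median 0.91). After subtraction of the median of all genes 23 were higher too (median 1.02). The medians with paclitaxel were 1.26 and 1.30, over the 37 members with at least 10 CPM there. The list's median difference between the paclitaxel and DMSO changes, each relative to its own median, was -0.11, so relative to other genes the list was higher at 72 h in both arms.

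The list holds sensors, transcription factors and effectors, and called members were found in each class. Of the cytosolic RNA sensors, IFIH1 (MDA5) was at 10.4 CPM at 24 h and 48.6 CPM at 72 h with paclitaxel (log2 2.23), and DDX58 (RIG-I) at 18.9 and 33.6 CPM (log2 0.83). Of the factors that carry the interferon signal to DNA, IRF7 was at 28.6 and 75.1 CPM (log2 1.40) and IRF9 at 12.04 and 18.2 CPM (log2 0.60). STAT2, at 36.1 and 48.8 CPM (log2 0.43), was the only member averaging 10 CPM or more that was not called. OAS1, which makes the activator of the antiviral nuclease RNase L, was at 7.60 and 46.6 CPM (log2 2.61), and USP18, which removes ISG15 from proteins and damps receptor signalling, at 27.8 and 57.3 CPM (log2 1.04). Without the 72 h cells with under 2% MT- UMIs, 36 of 37 members were again higher, with a median of 1.37.

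The summed UMIs of the list were higher across most cells of the library. Such a sum weighs abundant genes most: the 72 h library held 66631 UMIs of ISG15, 25662 of IFI6 and 474 of OAS2. It does not show that each member was higher in most cells. After every cell was thinned to 20000 UMIs, which left out 39 shallower cells at 72 h and 26 at 24 h, the median cell held 36 UMIs of the interferon list at 24 h and 92 UMIs at 72 h. At 72 h 60.7% of cells were above the 90th percentile of the 24 h cells, and 1 of 481 cells was below their 10th percentile. IFI6 was detected in 84.7% of thinned cells at 24 h (exact binomial interval 81.9 to 87.2%) and in 96.7% at 72 h (94.7 to 98.1%). With all UMIs these shares were 95.6% and 98.7%. IFI27 was detected in 10.5% of thinned cells at 24 h (8.43 to 12.95%) and in 37.8% at 72 h (33.5 to 42.3%). With all UMIs the IFI27 shares were 25.1% and 62.1%. In the DMSO libraries IFI27 was detected in 5.19% of thinned cells at 24 h and 7.05% at 72 h. The boxes of interferon-list UMIs per cell show that the lower quartile at 72 h, 62 UMIs, lay above the upper quartile at 24 h, 57.8 UMIs.

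**Figure D1:**
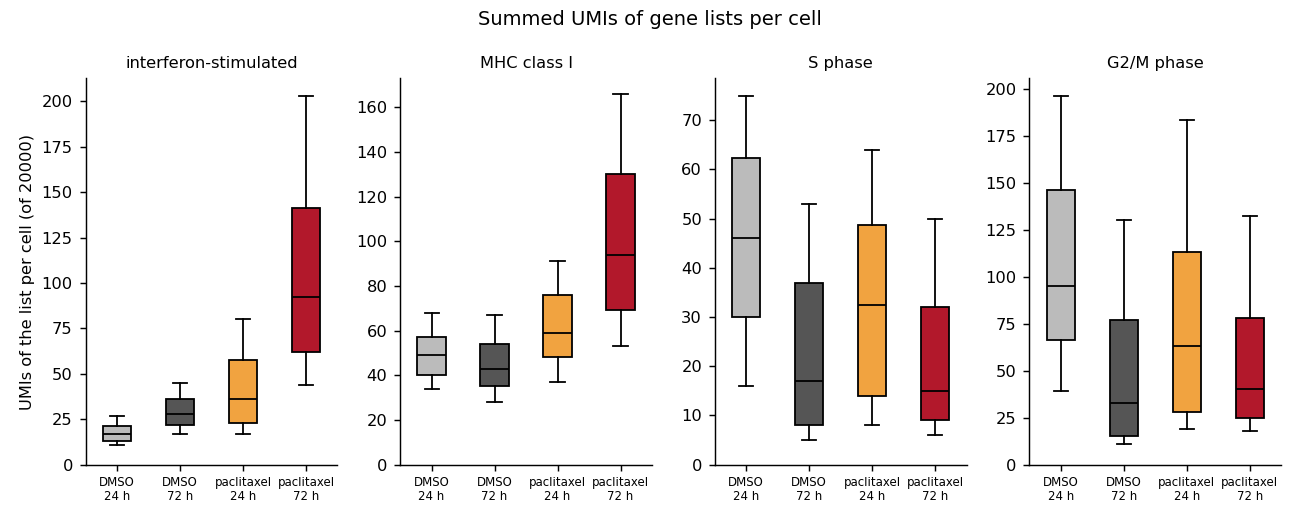
UMIs per cell of 4 gene lists after each cell was thinned to 20000 UMIs (y axis) in the 4 libraries (x axis); boxes span the quartiles, lines mark the median and whiskers the 10th and 90th percentiles over cells. Interferon-list medians go from 36 UMIs at 24 h to 92 UMIs at 72 h with paclitaxel, and G2/M medians from 63 to 40 UMIs.

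Several interferon-stimulated and chemokine genes were low at 24 h. IFIT2 was at 1.495 CPM at 24 h and 44.4 CPM at 72 h, a log2 ratio of 4.89 (4.57 to 5.23). IFIT3 was at 1.26 and 25.1 CPM (log2 4.32) and CXCL10 at 3.46 and 28.1 CPM (log2 3.02). CCL5, a chemokine for T cells and monocytes, was at 0.595 and 31.7 CPM, the largest log2 ratio among genes of 10 to 50 CPM, 5.74 (5.24 to 6.28). Their 72 h UMIs lay in a minority of cells, and the genes described in this way were chosen after their values were seen. IFIT2 had a UMI in 171 of the 520 cells (32.9%), and the 5 highest cells held 59.2% of its UMIs. CCL5 had a UMI in 86 cells (16.5%), and 5 cells held 75.5% of its UMIs; without their CCL5 UMIs the level was 7.78 CPM. CXCL10 was seen in 132 cells, with 55.6% of UMIs in 5 cells, and IFIT3 in 175 cells, with 40.1%. OAS2, a sensor of double-stranded RNA, was spread more evenly: 161 cells held a UMI and the 5 highest held 17.1% of them. In the 51 cells with under 2% MT- UMIs, IFIT2 was at 140 CPM and CCL5 at 155 CPM, against 35.9 and 20.7 CPM in the other 469 cells of the library.

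IFNL1, which encodes the type III interferon lambda-1 (chromosome 19, 39296325 to 39298673, plus strand, protein coding, GENCODE 29 on GRCh38), was listed in the 72 h treated table alone. Every gene in a table was detected in at least 1% of its barcodes, so absence from a table is a share under 1% and not a measured 0. At 72 h IFNL1 had 143 UMIs in 35 of 520 cells (6.73%, exact binomial interval 4.73 to 9.24%), of which 52 lay in 1 cell. Those 35 cells held 8.63% of the library's UMIs. They held 62.3% of the IFIT2 UMIs, 41.9% of the CCL5 UMIs, 35.8% of the CXCL10 UMIs and 28.8% of the IFIT3 UMIs. These shares rest on few cells, since the 5 highest cells of the library held 59.2% of the IFIT2 UMIs. No interval over cells was computed for them. The 35 cells were deeper than the rest, with a median of 85831 UMIs against 55911. Of the IFI6 UMIs, 10.8% were in the IFNL1 cells, at 924 CPM there and 719 CPM in the other 485 cells. IFI27 was at 64.8 CPM in the IFNL1 cells and 93.7 CPM in the others. IFIT2 was at 321 CPM in the IFNL1 cells and 18.3 CPM in the others. HCC1143 is 1 cell type, so no class of cells gives a level for free RNA, and its part was not tested.

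**Figure D2:**
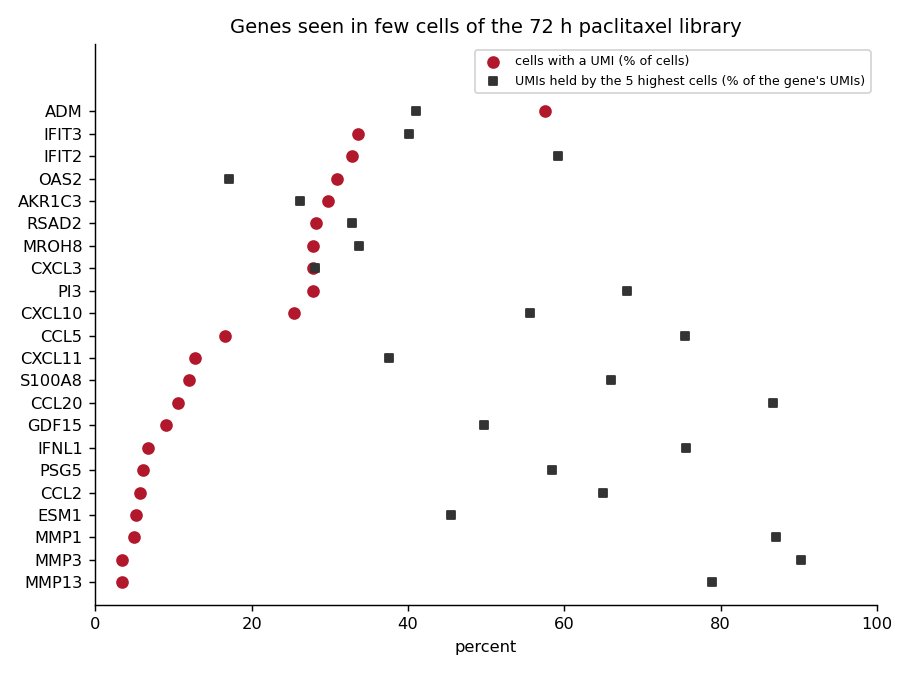
Genes of the 72 h paclitaxel library that were seen in part of the cells (chosen after their values were seen): share of the 520 cells with a UMI (circles) and share of the gene's UMIs held by its 5 highest cells (squares), both in percent. CCL20 and MMP3 had 86.7% and 90.3% of their UMIs in 5 cells, OAS2 17.1%.

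Antigen presentation genes were also higher. Of 21 genes of the MHC class I list, all were in a table, 17 averaged 10 CPM or more, 9 were higher and 0 lower at 72 h, with a median log2 ratio of 0.86. Over all genes at that level, 12.2% were higher and 2.65% lower. Of the 16 members with at least 10 CPM at 24 h, 8 were higher, beside 9.83% of all genes so chosen. HLA-E, a ligand of the NK-cell receptor NKG2A, was at 56.5 CPM with DMSO at 24 h, 104 CPM with DMSO at 72 h, 88.6 CPM with paclitaxel at 24 h and 250 CPM with paclitaxel at 72 h (log2 ratio with paclitaxel 1.495, 1.44 to 1.55). B2M, the light chain of the class I molecule, was at 280, 334, 451 and 1095 CPM (log2 1.28). The peptide transporter gene TAP1 was at 21.3, 17.2, 27.5 and 69.2 CPM (log2 1.33). In each of these 3 genes the 72 h treated library was at least 2-fold above the other 3. Loading chaperones differed less: the log2 ratio was 0.42 for TAPBP, 0.07 for CANX and -0.22 for CALR. Reads of HLA-E can be split with near-identical class I genes, so its level is uncertain.

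Chemokines and other inflammatory products were higher too. Of 31 genes, 27 were in a table and 19 averaged 10 CPM or more, of which 16 were higher and 0 lower, with a median log2 ratio of 1.00. Over all genes at that level, 12.2% were higher and 2.65% lower. Of the 13 with at least 10 CPM at 24 h, 10 were higher, beside 9.83% of all genes so chosen. With DMSO, 6 of 11 members with at least 10 CPM were higher at 72 h and 2 lower (median 0.69). Over all genes in that comparison 6.43% were higher and 25.1% lower. After subtraction of the median of all genes, the list's median was 0.94 over 19 members with paclitaxel and 1.10 over 11 with DMSO, so it was higher in both arms. The 2 sets differ because each arm has its own 10 CPM limit. Over the members at 10 CPM with paclitaxel that had a ratio in both arms, the median difference of the paclitaxel and DMSO changes was 0.48. This goes the other way from the 2 medians. CXCL8, the neutrophil chemokine interleukin-8, was at 32.2 CPM with DMSO at 24 h, 15.9 CPM with DMSO at 72 h, 84.1 CPM with paclitaxel at 24 h and 253 CPM with paclitaxel at 72 h. Its log2 ratio over time was 1.59 with paclitaxel (1.54 to 1.64) and -1.02 with DMSO. CXCL1 was at 190 and 358 CPM with paclitaxel (log2 0.91), and SAA1, an acute-phase protein, at 73.6 and 196 CPM (log2 1.41). CCL20 and PI3 were carried by few cells, with 86.7% and 68.0% of their 72 h UMIs in 5 cells. CCL28, a mucosal chemokine, was at 66.4 and 63.0 CPM with paclitaxel but at 16.5 and 95.8 CPM with DMSO.

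Among NF-kB pathway genes, 10 of 22 with at least 10 CPM were higher and 0 lower (median log2 0.48). They included the kinase gene RIPK2 (33.2 and 96.7 CPM, log2 1.54), the mitochondrial superoxide dismutase gene SOD2 (115 and 267 CPM, log2 1.22) and 2 inhibitors of the pathway, TNFAIP3 (11.3 and 23.8 CPM) and NFKBIA (76.0 and 148 CPM). The subunit genes NFKB1 and RELA had log2 ratios of 0.19 and 0.41 and were not called. Over all genes with at least 10 CPM, 12.2% were higher and 2.65% lower. With TMM factors, a scaling that leaves out extreme genes, 7 of the 22 were higher and 0 lower (median 0.26). Without the cells with under 2% MT- UMIs 9 were higher and 0 lower.

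**Figure D3:**
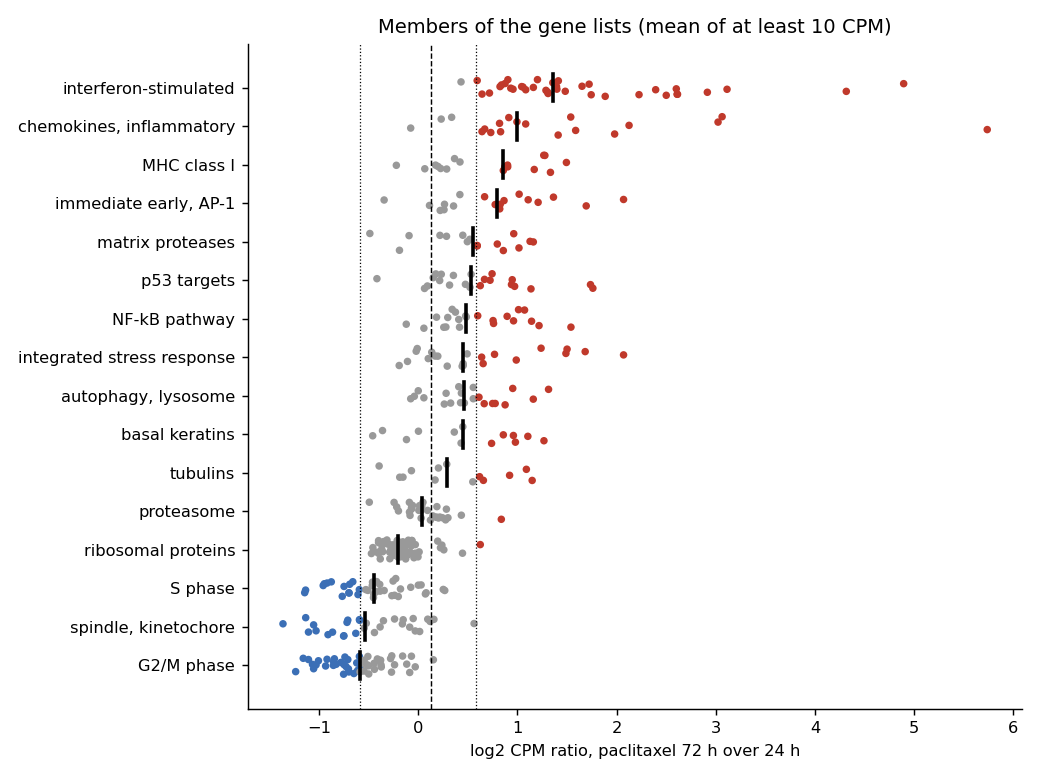
Log2 CPM ratio of 72 h over 24 h with paclitaxel (x axis) for members of 16 gene lists averaging 10 CPM or more (points; red at least 1.5-fold higher, blue at least 1.5-fold lower, grey between); black bars are list medians, the dashed line is the median of all genes, 0.13, and dotted lines mark 1.5-fold. The interferon list has a median of 1.36 and the G2/M list of -0.59.

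Several stress and growth-arrest genes were higher at 72 h with paclitaxel. ATF3 was at 15.1 CPM with DMSO at 24 h, 8.15 CPM with DMSO at 72 h, 19.8 CPM with paclitaxel at 24 h and 83.0 CPM with paclitaxel at 72 h, a log2 ratio of 2.07 (1.97 to 2.17) with paclitaxel and -0.89 with DMSO. It was detected in 26.0% of thinned cells at 24 h and in 55.3% at 72 h, and with all UMIs in 52.96% and 77.9%. GADD45A, a growth-arrest and DNA-damage-induced gene, was at 57.9, 30.2, 79.3 and 269 CPM in the same order (log2 1.76 with paclitaxel, -0.94 with DMSO). GADD45B was at 39.0 and 133 CPM with paclitaxel (log2 1.77). In these genes the 72 h treated library stood above the other 3, which lay within 3-fold of one another.

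Of 30 integrated stress response genes, 22 averaged 10 CPM or more, 9 were higher and 0 lower (median log2 0.45). Over all genes at that level, 12.2% were higher and 2.65% lower. With TMM factors 6 of the 22 were higher and 0 lower (median 0.23). DDIT3, the proapoptotic factor CHOP, was at 22.2 and 71.3 CPM with paclitaxel (log2 1.68). PPP1R15A, which restores translation by recruiting a phosphatase, was at 29.2 and 81.9 CPM (log2 1.49). ATF4 itself had a log2 ratio of 0.29, and the serine-synthesis targets PHGDH, PSAT1 and SHMT2 had ratios of 0.45, -0.19 and -0.11. The ER chaperone gene HSPA5 was at 107 and 145 CPM (log2 0.44). The cells with under 2% MT- UMIs were higher in part of these genes: DDIT3 was at 175 CPM there and 62.1 CPM in the other 72 h cells, DDIT4 at 338 and 111 CPM, and GADD45B at 319 and 116 CPM. Without them the list counted 7 higher and 0 lower. Their part in the remaining difference was not tested.

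Of 32 listed p53 targets, 22 averaged 10 CPM or more, of which 10 were higher and 0 lower (median log2 0.53). Over all genes at that level, 12.2% were higher and 2.65% lower. After subtraction of the median of all genes, the list's median was 0.47 with paclitaxel and 0.37 with DMSO. With TMM factors 6 of the 22 were higher and 1 lower. That scaling gave 118 higher and 266 lower among 2602 genes averaging 50 CPM or more. CDKN1A, the cyclin-dependent kinase inhibitor p21, was at 54.4 and 42.9 CPM with DMSO and at 49.6 and 109 CPM with paclitaxel (log2 1.14, 1.07 to 1.21). The canonical targets MDM2 and FDXR had log2 ratios of 0.07 and 0.09, and BAX, which permeabilises mitochondria, of -0.41. Several listed genes also belong to stress pathways that do not need p53. Among apoptosis-promoting genes, 8 of 17 were higher and 0 lower, or 5 and 1 with TMM factors. PMAIP1, the BH3-only protein NOXA, was at 42.3 and 141 CPM (log2 1.74), and BCL2L11, or BIM, at 21.8 and 42.8 CPM. Of 10 apoptosis-opposing genes, 4 were higher and 1 lower, or 1 and 1 with TMM factors: CFLAR and BCL2L1 had log2 ratios of 0.83 and 0.65, and BIRC5, which also serves the mitotic spindle, of -1.05.

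**Figure D4:**
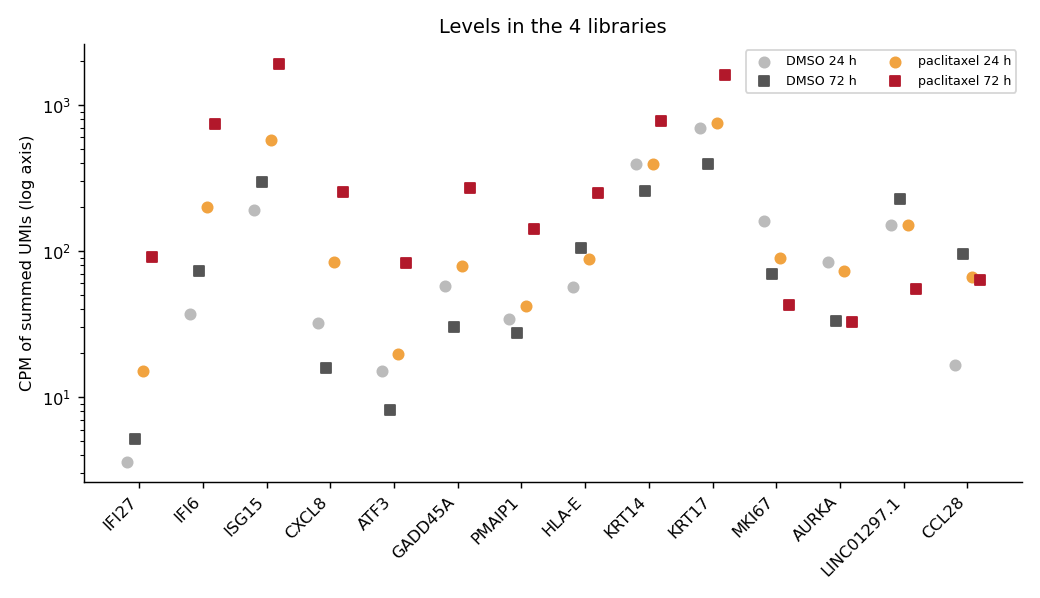
CPM of summed UMIs (log axis) of 14 genes in the 4 libraries, 1 point per library. For IFI6, ISG15, CXCL8, ATF3 and GADD45A the 72 h paclitaxel library is the highest point, while MKI67 and AURKA are lowest there, AURKA at 32.6 CPM beside 33.2 CPM with DMSO at 72 h.

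Proliferation genes were lower at 72 h. Of the 54 G2/M genes with at least 10 CPM, 27 were lower and 0 higher (median log2 -0.59), as were 14 of 38 S-phase genes (median -0.45) and 14 of 30 spindle and kinetochore genes (median -0.53). Over all genes at that level, 12.2% were higher and 2.65% lower. With TMM factors 44 of the G2/M genes and 24 of the S-phase genes were lower, beside 266 of 2602 genes averaging 50 CPM or more. MKI67, a marker of cycling cells, was at 161 CPM with DMSO at 24 h, 69.6 CPM with DMSO at 72 h, 89.4 CPM with paclitaxel at 24 h and 42.8 CPM with paclitaxel at 72 h (log2 with paclitaxel -1.06, -1.15 to -0.98). AURKA, the mitotic kinase Aurora A, was at 84.8, 33.2, 72.7 and 32.6 CPM (log2 -1.16). Both were lower at 72 h with and without drug. Of the 78 genes with at least 50 CPM in both comparisons that were lower with paclitaxel, 66 were lower with DMSO too and 0 were higher, beside 35.5% lower over all genes in the DMSO comparison.

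A phase was assigned to each thinned cell from 43 S-phase and 56 G2/M genes. With paclitaxel, G1 calls made up 35.3% of cells at 24 h (31.9 to 38.9%) and 68.0% at 72 h (63.6 to 72.1%). S calls made up 36.1% and 16.6%, and G2/M calls 28.5% and 15.4%. With DMSO, G1 calls made up 14.7% at 24 h and 50.5% at 72 h. Phase calls use these same genes, so they add no independent measure of cycling.

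The interferon list was higher within each phase class. Its median was 1.00 in cells called G1, 1.26 in cells called S and 1.57 in cells called G2/M. GADD45A had log2 ratios of 1.23, 1.61 and 2.19 in the same classes, and ATF3 of 1.78, 1.91 and 2.48. Members of the G2/M list averaging 10 CPM or more in a class had a median of 0.15 in G1 cells, 0.19 in S cells and -0.17 in G2/M cells. MKI67 had log2 ratios of -0.96, -0.03 and -0.43. KRT17 had ratios of 1.07, 0.35 and 0.69.

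Tubulin genes code for the target of the drug. Of 17 listed, 13 averaged 10 CPM or more, of which 5 were higher and 0 lower at 72 h (median log2 0.29). Over all genes at that level, 12.2% were higher and 2.65% lower. Of the 10 tubulin genes with at least 10 CPM at 24 h, 2 were higher (median 0.19), beside 9.83% of all genes so chosen. With DMSO 6 of 10 were lower and 0 higher (median -1.16), beside 25.1% lower and 6.43% higher over all genes. After subtraction of the median of all genes 5 of the 10 were lower with DMSO and 1 higher (median -0.75). Isotypes of high level were not called with paclitaxel: TUBB was at 655 and 738 CPM (log2 0.17), TUBB4B at 207 and 198 CPM (-0.07) and TUBA1B at 653 and 497 CPM (-0.39). With DMSO, TUBB4B was at 210 and 77.5 CPM and TUBA1B at 726 and 280 CPM. Isotypes of lower level were higher at 72 h with paclitaxel: TUBA1A was at 58.2 and 124 CPM (log2 1.09), TUBB2A at 19.1 and 36.3 CPM (0.92) and TUBB2B at 9.80 and 21.7 CPM (1.15). TUBB3, a beta-tubulin isotype known from taxane resistance, was at 3.03 and 8.92 CPM (log2 1.56), below the level at which calls were made. Tubulin paralogs can share reads, and with TMM factors 3 of the 13 were higher and 1 lower (median 0.06).

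Basal keratins differed among themselves. Of 13 genes of the basal list with at least 10 CPM, 6 were higher and 0 lower, or 5 and 2 with TMM factors. Over all genes at that level, 12.2% were higher and 2.65% lower before TMM scaling. KRT17 was at 750 and 1615 CPM with paclitaxel (log2 1.11) and at 696 and 397 CPM with DMSO (-0.81). KRT14 was at 397 and 772 CPM with paclitaxel (0.96) and at 391 and 257 CPM with DMSO (-0.61). KRT5, the usual partner of KRT14, was at 116 and 117 CPM with paclitaxel. KRT14 was at 1912 CPM in the 72 h cells with under 2% MT- UMIs and at 670 CPM in the others. Among matrix proteases and their regulators 8 of 16 were higher (5 with TMM factors, and 1 lower), among them PLAUR, the urokinase receptor (128 and 279 CPM), and SERPINB5 (81.0 and 181 CPM). MMP1 was listed at 72 h alone, in 26 cells (5.00%).

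Across all 2696 genes averaging 50 CPM or more, 253 were higher (9.38%) and 79 lower (2.93%) at 72 h with paclitaxel. With DMSO, 171 of 2470 were higher (6.92%) and 876 lower (35.5%). The median log2 ratio of these genes was 0.061 with paclitaxel and -0.41 with DMSO. Scaling bears on the balance: TMM factors took 0.23 off each log2 ratio with paclitaxel, giving 118 higher and 266 lower. The 15 highest and 15 lowest genes all kept at least 1.5-fold. They were chosen as the extremes of these ratios and the shift is the same for every gene, so this is no check of them. Within phase classes the 15 highest also kept 1.5-fold, but of the 15 lowest 9 did in G1 cells, 1 in S cells and 9 in G2/M cells. With totals that leave out ribosomal protein and MT- genes, 180 were higher and 134 lower. Of the 147 genes higher with paclitaxel that had at least 50 CPM in both comparisons, 34 were higher with DMSO, 17 lower and 96 neither.

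**Figure D5:**
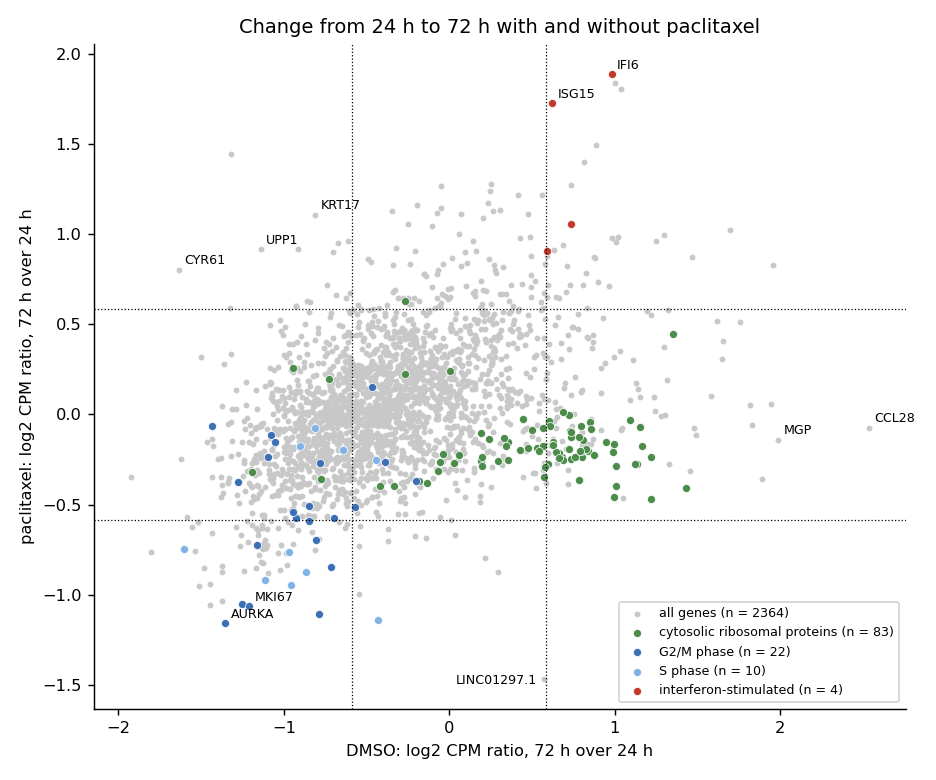
Log2 CPM ratio of 72 h over 24 h with DMSO (x axis) and with paclitaxel (y axis) for 2364 genes averaging 50 CPM or more in both comparisons, which share no library; colours mark 4 gene lists and dotted lines 1.5-fold. The median ribosomal protein gene is at 0.63 with DMSO and at -0.20 with paclitaxel, and most S and G2/M genes lie below 0 in both.

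Some changes seen with DMSO were not seen with paclitaxel. After each comparison's median was subtracted, the difference of the paclitaxel and DMSO changes reached 1.5-fold above in 186 of 2591 genes (7.18%) and below in 379 (14.6%). Ribosomal protein genes were 47 of 83 higher with DMSO and 1 of 83 higher with paclitaxel. Over all genes averaging 10 CPM or more the shares were 6.43% and 12.2%. RPL3 was at 2880 and 6717 CPM with DMSO and at 4568 and 3299 CPM with paclitaxel. KRT15 was at 64.3 and 239 CPM with DMSO and at 146 and 114 CPM with paclitaxel, and MGP, a secreted calcification inhibitor, at 42.2 and 168 CPM and then 167 and 152 CPM. LINC01297.1, a long noncoding RNA, had the lowest ratio with paclitaxel among genes averaging 50 CPM or more: 151 and 54.9 CPM (log2 -1.46, -1.54 to -1.39), beside 152 and 226 CPM with DMSO. It was detected in 68.3% of thinned cells at 24 h and 29.1% at 72 h, and with all UMIs in 85.3% and 48.7%.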

How the data were processed

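HCC1143 cells were profiled with 10x Genomics droplets in 4 libraries, 1 per drug and time. The deposited tables hold UMI counts per gene and cell, made by the authors with Cell Ranger 2.0 on GRCh38, per the submitters' processing notes. Each listed gene was detected in at least 1% of a table's barcodes. Cells with under 20% MT- UMIs were kept (520 of 526 and 776 of 778 with paclitaxel). UMIs were summed per library and scaled to CPM, and ratios carry exact intervals of 2 counts. With 1 library per group no test or p-value was possible. The call rule was run on simulated counts with 2-fold changes. These held counting error only, with no spread between cells or libraries, so they do not check the calls against such spread. Phases came from scanpy 1.11.5 on cells thinned to 20000 UMIs. Scrublet, run in scanpy on all UMIs of the kept cells, marked 12 cells as doublets at 72 h and 6 at 24 h, which were kept. TMM factors came from edgeR 4.0.16. Named genes were the 15 highest and 15 lowest ratios, 8 more each way at 10 to 50 CPM, 8 each way by the difference from DMSO, 4 per gene list and a fixed set; markers and other genes named beside them were chosen after their values were seen. The comparison and the 48 lists were chosen with earlier results of these data known. Replicates are absent, so precision is counting error alone. The DMSO libraries shared 3 barcodes with each other, and the 24 h DMSO library 4 with the 24 h treated one; all were kept. Some genes of the lists are not reported here by name.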

Additional observations from a re-analysis of the deposited data

Results flagged for a closer look

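In 16 of the 217 genes chosen by the naming rule, each averaging 10 CPM or more in both comparisons, the paclitaxel ratio of 72 h over 24 h was at least 1.5-fold higher while the DMSO ratio was at least 1.5-fold lower, with the same signs under each scaling. The naming rule picks genes partly by these same ratios and by their difference from DMSO, so 16 of 217 is not a share of all genes. The 1.5-fold limits were set on CPM ratios before subtraction of a median, and the other scalings had to keep only the sign. The median log2 ratio of genes averaging 50 CPM or more was -0.41 with DMSO and 0.061 with paclitaxel, so the median gene was lower with DMSO too. Among all 2364 genes averaging 50 CPM or more in both comparisons, 17 were higher with paclitaxel and lower with DMSO. Another 34 were higher in both, and 96 were higher with paclitaxel and neither with DMSO. Over all genes in the DMSO comparison 35.5% were lower and 6.92% higher. With 1 library per group the difference was not tested. The log2 ratios with paclitaxel were 2.07 for ATF3, 1.76 for GADD45A, 1.59 for CXCL8, 1.44 for RP11-54H7.4, 1.23 for SLC3A2 and 1.11 for KRT17. They were 0.96 for KRT14, 0.95 for SFN, 0.92 for TUBB2A, 0.91 for UPP1, 0.90 for HSPB1 and 0.88 for C5orf46. They were 0.80 for CYR61, 0.69 for WARS, 0.67 for CNN3 and 0.66 for DNAJB1. SLC3A2 encodes the heavy chain of amino acid transporters, HSPB1 a small heat shock protein and CYR61 a matricellular target of YAP. CYR61 was at 103 and 33.2 CPM with DMSO and at 67.2 and 117 CPM with paclitaxel.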

How the results depend on the processing

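With 1 library per group the results are differences between libraries, and drug, time and library cannot be told apart. With TMM factors 118 genes were higher and 266 lower with paclitaxel, with a median log2 ratio of -0.17. With totals without ribosomal protein and MT- genes 134 were lower with paclitaxel, the median was -0.037, and 357 were higher and 406 lower with DMSO. At a mean of at least 10 CPM the counts were 1015 and 221 with paclitaxel (median 0.13), 519 and 2025 with DMSO, and 750 and 1035 for the difference. With no minimum they were 3871 and 375 (median 0.25), 1862 and 2890, and 2050 and 2206. At 2-fold they were 66 and 8, 53 and 225, and 31 and 171. In cells called G1, 13 were lower with paclitaxel (median 0.14) and 559 with DMSO. Alternatives added after the data were seen were S cells (17 lower with paclitaxel, median 0.15), G2/M cells (132 lower, median -0.012) and subtraction of the median (399 higher and 231 lower with DMSO; 205 and 110 with paclitaxel). Over the 15 highest genes the median change in the share of detecting cells was 22.4 points in thinned cells and 8.73 points with all UMIs. Those genes were chosen by their ratios in these same cells, so a growth is no independent result. In S cells the sign turned for BIRC5 (0.020), CCL20 (-0.92), CCNA2 (0.0093), FOXM1 (0.046), HIST3H2A (-0.032), ID2 (-0.14), MT2A (0.12), RRM2 (0.0032), TOP2A (0.36) and UHRF1 (0.033). The median of the G2/M list turned to 0.14 in G1 cells and 0.19 in S cells, and that of the histone list to -0.032 in S cells. Phase classes hold fewer cells and are cut from the same genes; the cause of the other shifts was not tested. No paired analysis was possible because each group has 1 library.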

Other observations

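Further gene groups differed between the treated libraries. Over all genes averaging 10 CPM or more, 12.2% were higher at 72 h and 2.65% lower. Of 24 autophagy and lysosome genes, 21 had a mean of at least 10 CPM, of which 8 were higher and 0 lower at 72 h (median log2 0.47), or 4 and 0 with TMM factors. GABARAPL1 and MAP1LC3B, which coat autophagosome membranes, were at 19.8 and 49.4 CPM and at 54.0 and 121 CPM, and the cargo receptor gene SQSTM1 at 379 and 650 CPM. The initiation gene BECN1 was at 39.3 CPM at both times. Of 22 cholesterol synthesis genes 6 were higher and 0 lower (median 0.38), or 3 and 1 with TMM factors (median 0.15), among them MVD (28.6 and 67.2 CPM) and INSIG1 (41.6 and 92.4 CPM). After subtraction of the median of all genes, the autophagy list's median was 0.41 with paclitaxel and 0.25 with DMSO. The cholesterol list's was 0.32 and 0.47. ADM, the vasodilator peptide adrenomedullin, was at 7.98 and 45.3 CPM with paclitaxel and at 11.6 and 4.90 CPM with DMSO. The glycolytic gene GAPDH had a log2 ratio of -0.014 with paclitaxel.

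Host genes of small nucleolar RNAs were higher in 6 of 8 cases (median log2 0.71), in 3 of 8 with TMM factors, and in 4 of 8 without the 72 h cells with under 2% MT- UMIs. With DMSO 4 of 8 were higher at 72 h and 1 lower (median 0.56). Over all genes averaging 10 CPM or more with DMSO, 6.43% were higher and 25.1% lower. After subtraction of the median of all genes, the list's median was 0.65 with paclitaxel and 0.97 with DMSO. SNHG12 was at 31.1 and 104 CPM, and SNHG25 at 204 and 713 CPM. Histone genes split: HIST1H2BD and HIST2H2BE, whose transcripts can be polyadenylated outside S phase, were at 9.59 and 32.9 CPM and at 16.6 and 46.1 CPM, while the replication-coupled HIST1H4C was at 381 and 233 CPM. Of 7 histone-list genes with at least 10 CPM, 5 were higher and 2 lower with paclitaxel (median 1.02). With DMSO, 4 of 7 were higher and 3 lower (median 0.95). Histone paralogs can share reads. Among stem and progenitor markers SOX4 was at 144 and 280 CPM with paclitaxel and at 81.8 and 195 CPM with DMSO.

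Across the 481 thinned cells at 72 h, the summed interferon-list UMIs had a Spearman rho of 0.44 with those of the MHC class I list, 0.24 with the chemokine list, -0.03 with the integrated stress response list and -0.30 with ribosomal protein UMIs. The cells share 1 library and a fixed number of UMIs, so these values only describe it. Genes seen at 72 h and not listed at 24 h with paclitaxel included, chosen after their values were seen, ESM1 (27 cells), PSG5 (32 cells) and TNFSF14 (30 cells).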
